A study of Mus musculus with 4 samples.

Results

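The comparison of 21 with 12 weeks within diabetic (DB) mice was made separately in 5 leukocyte lineages of the mouse hindpaw. DB mice were male Lepr db/db animals (C57BLKS/J-Dock7m +/+ Leprdb), whose leptin receptor cannot signal and which develop obesity and high blood glucose, and the wild-type (WT) mice were their male littermates without the mutation. CD45+ cells were sorted from both hindpaws after collagenase digestion at 12 or 21 weeks of age, and each of the 4 groups (12-week-DB, 21-week-DB, 12-week-WT and 21-week-WT) gave 1 droplet library (10x 3' v3) of cells pooled from 2 to 3 mice. A lineage was a set of cells chosen by the unique molecular identifiers (UMIs) of a few genes, where each UMI stands for 1 captured transcript. Macrophages had at least 10 UMIs of the complement genes C1qa, C1qb and C1qc together. Dendritic cells had at least 10 UMIs of H2-Aa, under 5 of C1q and none of Cd79a. T cells had at least 1 UMI of Cd3e, and type 2 innate lymphoid cells (ILC2) at least 2 of Gata3 and none of Cd3e, both with under 5 of C1q. Mast cells had at least 1% of their UMIs in the protease genes Cpa3, Cma1, Mcpt4 and Tpsb2. The lineages held 12175 DB cells, 5358 of 6552 kept cells at 12 weeks and 6817 of 8707 at 21 weeks, and the same gates held 9929 WT cells. The series had 27800 kept cells in all.

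Macrophages clear debris and present antigen in skin, and dendritic cells carry antigen to lymph nodes and prime T cells. In mouse skin many T cells carry the gamma-delta receptor, whose constant chain is encoded by Trdc, and reside there for life. ILC2 lack antigen receptors and answer tissue alarm signals with type 2 cytokines such as interleukin 13 (IL-13), while mast cells store proteases and histamine in granules and also secrete cytokines and chemokines.

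The 12-week-DB library held 57025899 UMIs in 7463 barcodes, of which 6552 were kept, and the 21-week-DB library held 54989592 UMIs in 9124 barcodes, of which 8707 were kept. Both DB libraries shared 21 barcodes with each other, and 21-week-DB shared 154 with 21-week-WT. The file headers named Cell Ranger 5.0.0 at 12 weeks and 6.0.0 at 21 weeks, so software version and age cannot be told apart. With 1 library per group no difference between ages had a replicate check, no test between ages was made, and the 95% intervals, exact unless named otherwise, speak for counting error alone. Levels are CPM, the UMIs of a gene per 1000000 UMIs of the same gated cells, and each ratio is a log2 ratio of 21 over 12 weeks. A gene was called higher or lower when this ratio was at least 1 in size and its interval excluded 0, among genes whose CPM averaged 50 or more over both ages and that had 50 or more UMIs. A gene under 50 CPM at 1 age could be compared only through its level at the other age. For such a gene the rule itself favoured a difference between ages.

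The lineages had their own markers beyond the genes of the gates. Macrophage markers such as Csf1r (8 genes) summed to 16131 to 17287 CPM from 12 to 21 weeks in the macrophage gate, against 1039 to 402 CPM in T cells, 625 to 151 CPM in ILC2 and 759 to 351 CPM in mast cells. T cell markers (7 genes) summed to 2665 to 2449 CPM in T cells and reached at most the 412 to 393 CPM of ILC2 in any other lineage. Mast cell markers (8 genes) summed to 70190.0 to 43604 CPM in mast cells and to 573 to 414 CPM in ILC2, the highest of the others. ILC2 markers (7 genes) summed to 2922 to 3339.5 CPM in ILC2, 1887 to 2643 CPM in mast cells and 1489.5 to 2226 CPM in T cells, so they separated this gate less sharply. The dendritic gate was less clean. Its dendritic markers (8 genes) summed to 622 to 597 CPM, the most of any lineage, but macrophage markers summed to 5120.0 to 5664 CPM there, most of it lysozyme (Lyz2, 4191 to 4973 CPM), with Csf1r at 209.7 to 180.4 CPM. The type 1 dendritic markers Xcr1 (23 to 2.86 CPM) and Clec9a (6.73 to 0.879 CPM) were at low levels at both ages and lower at 21 weeks. The type 2 dendritic marker Cd209a was at 245 to 237 CPM.

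Mast cells and ILC2 took larger shares of the kept cells at 21 weeks, and macrophages and dendritic cells took smaller ones. Mast cells numbered 299 (4.56%, 95% interval 4.07% to 5.10%) at 12 weeks and 1228 (14.1%, 13.4% to 14.9%) at 21 weeks, a 3.09-fold share (2.73 to 3.49, a normal interval on the log scale, as for all ratios of shares). ILC2 went from 846 cells (12.9%) to 1601 (18.4%), 1.42-fold (1.32 to 1.54). Dendritic cells went from 918 cells (14.0%) to 355 (4.08%), 0.291-fold (0.259 to 0.328), and macrophages from 1767 (27.0%) to 1436 (16.5%), 0.612-fold (0.575 to 0.651). T cells were at 25.3% and 26.0%, 1.03-fold (0.973 to 1.09). In WT mice the share of mast cells went the other way, from 6.56% to 3.14%, as did that of dendritic cells, from 18.8% to 23.6%, while macrophages also went down, from 31.6% to 21.9%. WT T cells went from 15.7% to 23.6% and WT ILC2 from 8.37% to 9.31%. A share of sorted cells moves with every other share, and each group was 1 pooled suspension, so these values give the makeup of those suspensions.

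**Figure D1:**
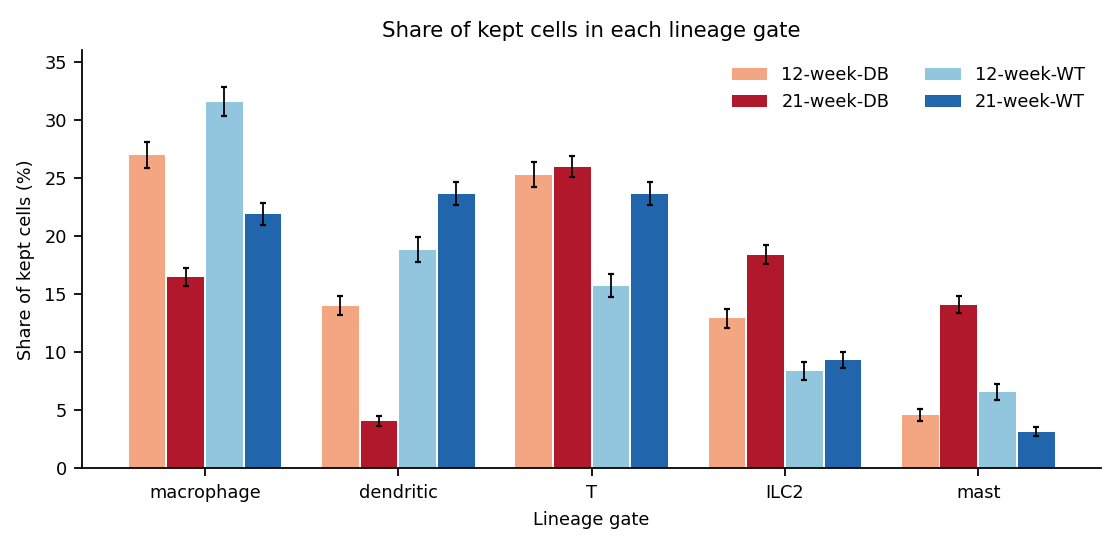
Share of kept cells (%) in each lineage gate in the 4 libraries, with exact 95% binomial counting intervals. The 21-week-DB bar is the highest of the 4 for mast cells (14.1%) and ILC2 (18.4%) and the lowest for dendritic cells (4.08%) and macrophages (16.5%).

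The number of genes that differed 2-fold between ages was larger in DB than in WT in every lineage. Among 3198 genes compared in macrophages, 74 were higher (2.31%) and 64 lower (2.00%) at 21 weeks in DB, against 16 (0.505%) and 17 (0.536%) of 3171 in WT. In dendritic cells 100 of 2908 were higher (3.44%) and 49 lower (1.69%), against 7 (0.251%) and 27 (0.969%) of 2786 in WT. T cells had 28 of 3145 higher (0.890%) and 169 lower (5.37%), against 3 (0.0980%) and 29 (0.947%) of 3062. ILC2 had 32 of 2914 higher (1.10%) and 94 lower (3.23%), against 11 (0.363%) and 24 (0.793%) of 3028. Mast cells had 123 of 3080 higher (3.99%) and 130 lower (4.22%), against 56 (1.75%) and 120 (3.74%) of 3206. The difference between DB and WT counts was not tested. Scaling by total UMIs left the median gene between -0.14 and -0.11, and scaling by trimmed means (TMM) raised all ratios by 0.10 in macrophages, 0.18 in dendritic and T cells, 0.26 in ILC2 and 0.13 in mast cells. Under TMM the higher and lower counts were 85 and 47 in macrophages, 138 and 23 in dendritic cells, 66 and 103 in T cells, 82 and 38 in ILC2 and 170 and 80 in mast cells, so the excess of lower genes in ILC2 and mast cells turned into an excess of higher genes.

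**Figure D2:**
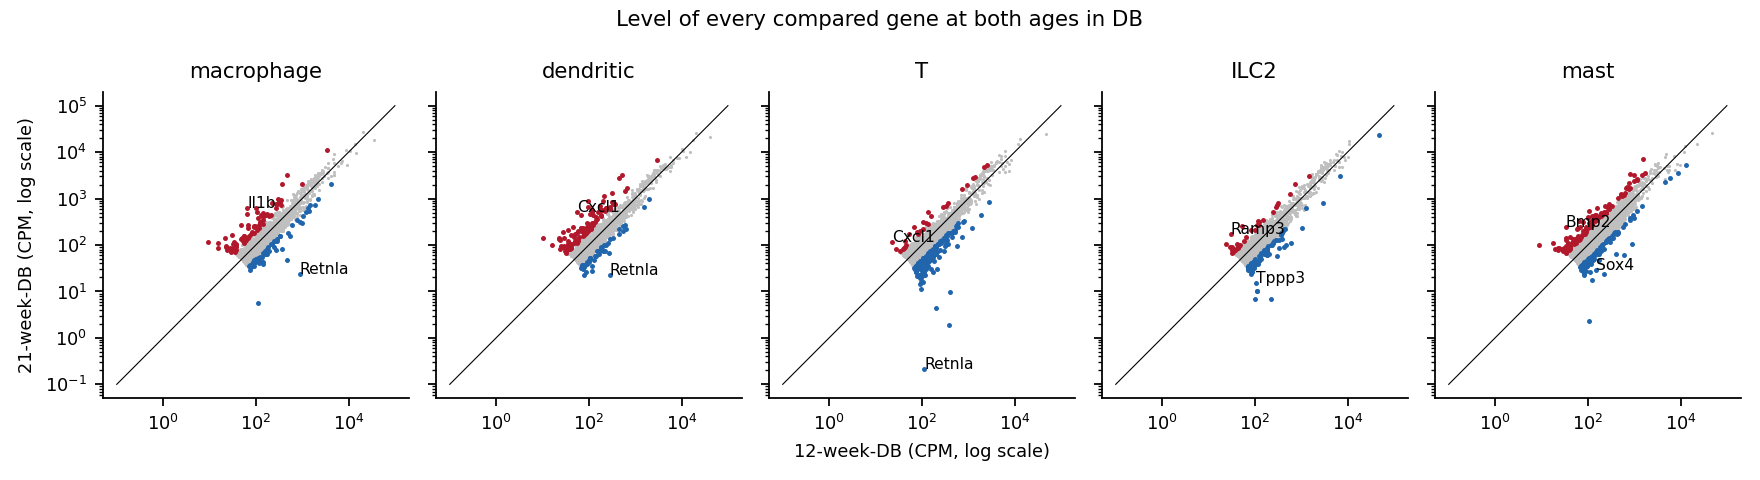
Level of each compared gene in 12-week-DB (horizontal axis, CPM, log scale) and 21-week-DB (vertical axis, CPM, log scale), 1 panel per lineage. Red points are higher and blue points lower at 21 weeks by the 2-fold rule, grey points are the rest, the line marks equal levels, and Retnla lies furthest below it in macrophages, dendritic cells and T cells.

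Most genes called and kept for naming were called in 1 lineage, but a gene could be too low or excluded in the others. Each DB lineage had 0.890% to 5.37% of its compared genes called in each direction. How many genes could be called in several lineages was not counted, so the counts below do not measure how particular a gene was to a lineage. Of the genes called higher that passed the exclusions for naming, 192 were called in 1 lineage, 46 in 2, 10 in 3, 2 in 4 and 1 in all 5. Of those called lower, 285 were called in 1 lineage, 44 in 2, 16 in 3, 5 in 4 and 2 in all 5. The 10 genes shared by at least 4 lineages are described first.

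The metallothionein genes Mt1 and Mt2, whose small proteins bind zinc and copper, and the chemokine genes Cxcl1 and Cxcl2, which attract neutrophils through the receptor CXCR2, included the widest shared rises. Mt1 was called in all 5 lineages and Cxcl2 in 4 by these rules, and Mt2 and Cxcl1 are their neighbours. Stretches before their annotated start sites are shown because Mt1 and Cxcl2 rose in most lineages. The bases before each start site come from RefSeq (build GRCm38.p6, plus strand, 5′ to 3′) and end just before the GENCODE vM21 gene for Mt1, Cxcl1 and Cxcl2, and for Mt2 just before the RefSeq start, which lies upstream of the GENCODE one. Capitals in Mt1 (chr8:94178839-94179081) and Mt2 (chr8:94172368-94172617) mark TGCNCNC on either strand, a looser form of the metal response element core TGCRCNC (R is A or G). In Cxcl1 (chr5:90890995-90891240) and Cxcl2 (chr5:90903649-90903870) they mark GGG and TTTCC with any 2 bases between them, a form of the site that NF-kB binds, also on either strand.
Mt1: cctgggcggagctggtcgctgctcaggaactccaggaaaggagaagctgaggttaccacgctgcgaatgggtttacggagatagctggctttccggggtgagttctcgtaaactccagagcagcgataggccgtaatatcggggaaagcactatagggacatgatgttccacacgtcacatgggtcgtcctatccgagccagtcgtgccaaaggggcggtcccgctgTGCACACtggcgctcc
Mt2: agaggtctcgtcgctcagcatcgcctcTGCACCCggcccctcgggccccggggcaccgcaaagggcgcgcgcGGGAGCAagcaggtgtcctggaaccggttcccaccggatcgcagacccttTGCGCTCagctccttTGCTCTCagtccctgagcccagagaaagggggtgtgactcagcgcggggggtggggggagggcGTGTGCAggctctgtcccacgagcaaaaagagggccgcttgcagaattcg
Cxcl1: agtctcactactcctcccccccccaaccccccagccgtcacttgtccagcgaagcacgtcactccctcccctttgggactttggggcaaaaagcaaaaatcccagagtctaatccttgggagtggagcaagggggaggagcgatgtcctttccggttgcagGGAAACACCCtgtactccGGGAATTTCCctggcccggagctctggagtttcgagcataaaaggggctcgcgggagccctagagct
Cxcl2: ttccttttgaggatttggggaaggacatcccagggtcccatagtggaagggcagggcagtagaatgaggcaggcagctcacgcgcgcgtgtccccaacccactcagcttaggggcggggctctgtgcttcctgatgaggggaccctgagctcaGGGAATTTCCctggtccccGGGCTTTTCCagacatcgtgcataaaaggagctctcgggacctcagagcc

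TGCNCNC occurred 1 time before Mt1 and 5 times before Mt2. Bases past the RefSeq start were not searched, so sites downstream of it are not in these counts. Among 32851 windows of the 250 bases before a RefSeq start, 44.4% held TGCNCNC at least 1 time and 0.344% at least 5 times. The NF-kB form occurred 2 times before each chemokine gene, and 1.41% of the windows held it at least 1 time and 0.0244% at least 2 times. A match in these letters is a description of the sequence and does not show that a factor bound there.

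Mt1 was called higher in every DB lineage and in none of the WT ones. Its level went from 369.9 to 2069 CPM in macrophages, a log2 ratio of 2.48 (95% interval 2.45 to 2.52), and from 209 to 1125 CPM in dendritic cells, a ratio of 2.43 (95% interval 2.36 to 2.50). In T cells it went from 104 to 314 CPM (1.60), in ILC2 from 123 to 269 CPM (1.13) and in mast cells, where it was highest at 12 weeks, from 823 to 1677 CPM (1.03). The WT ratios in the same order were -0.082, -0.17, 0.01, -0.57 and -0.20. Mt2 went from 63.6 to 455 CPM in macrophages (2.84) and from 34.8 to 209 CPM in dendritic cells (2.59), was not called in ILC2 (43.6 to 74.9 CPM, 0.78) or mast cells (249 to 448 CPM, 0.85) and was too low in T cells to be compared. In WT macrophages Mt2 was at 45.6 to 58.9 CPM.

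Cxcl2 had the highest 21-week level of the shared rises. It went from 465 to 3273 CPM in macrophages (2.82, 95% interval 2.78 to 2.85), from 442 to 2718 CPM in dendritic cells (2.62, 95% interval 2.57 to 2.67), from 158 to 430.0 CPM in T cells (1.44) and from 322 to 805 CPM in ILC2 (1.32). In mast cells it was also past 2-fold, from 72.5 to 148 CPM (1.03), but there its level was under 10% of that in macrophages of the same library, and it was left out of the shared count. WT macrophages also rose, from 573 to 1459 CPM (1.35), while the WT ratios of the other lineages lay between 0.19 and 0.92. Bcl2a1b, which encodes an anti-apoptotic relative of BCL2, went from 66.5 to 268 CPM in macrophages (2.01), from 115 to 523 CPM in dendritic cells (2.18), from 138 to 523 CPM in T cells (1.93) and from 31.5 to 89.2 CPM in ILC2 (1.50). In ILC2 it was under 50 CPM at the younger age and was compared only through its level at the older age. Its place among these shared rises rested on that comparison. Bcl2a1b has near-identical copies in the genome, so reads could be split between the copies.

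The shared falls were of unlike function. Tppp3, a tubulin-binding protein, went from 966 to 296 CPM in macrophages (-1.71), from 623 to 222 CPM in dendritic cells (-1.49), from 175 to 26.2 CPM in T cells (-2.74) and from 107 to 15.0 CPM in ILC2 (-2.84), against WT ratios between -0.72 and -0.19 in these 4 lineages. In DB T cells and ILC2 Tppp3 was under 50 CPM at the older age and was compared only through its level at the younger age. Myadm, a membrane protein of myeloid differentiation, was called lower in all 5, from -1.94 in ILC2 (325 to 84.8 CPM) to -1.34 in mast cells (436 to 173 CPM). Dpysl2, a cytoskeletal regulator, was also called in all 5, with ratios from -1.22 to -1.02 that lay close to the threshold. Anxa2 (annexin A2), Atp2a3 (a calcium pump of the endoplasmic reticulum) and mt-Nd3 (a subunit of respiratory complex I encoded in mitochondria) were called in 4 lineages each. All ratios of these 3 genes lay between -1.43 and -0.79. Under TMM scaling mt-Nd3 was not called in macrophages, dendritic cells, T cells or ILC2. Lars2, the mitochondrial leucyl-tRNA synthetase, went from 2960.4 to 799 CPM in ILC2 (-1.89) and from 2786 to 828 CPM in T cells (-1.75) and was not called in mast cells (-0.44). The gene model Gm42418, which overlaps ribosomal RNA sequence, went from 36037 to 18582 CPM in macrophages (-0.96) and from 48148 to 24326 CPM in T cells (-0.99), and its part in these falls was not tested.

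**Figure D3:**
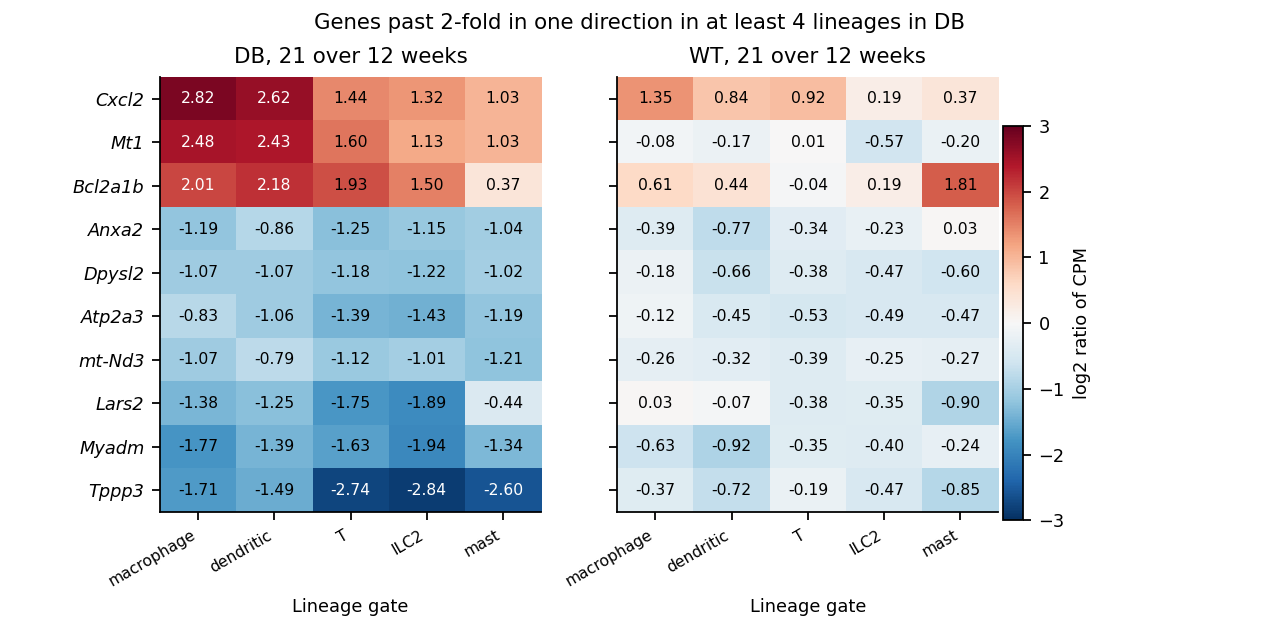
Log2 ratio of 21 over 12 weeks for the 10 genes past 2-fold in one direction in at least 4 lineages in DB (left), with the same ratios in WT (right). The DB ratios of Mt1 run from 1.03 to 2.48 and the WT ratios from -0.57 to 0.01. The directions of the called DB ratios hold under TMM and median-of-ratios scaling, but being past 2-fold does not always hold. Under TMM mt-Nd3 was not called in macrophages, dendritic cells, T cells or ILC2. Of all 96 named gene and lineage pairs, 82 stayed at least 2-fold under TMM.

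In DB macrophages at 21 weeks the inflammatory genes were higher as a group and Retnla had the largest fall. All 12 compared members of a list of 18 inflammatory cytokines and NF-kB targets were called higher, with a median ratio of 1.48 beside -0.11 for all compared genes, whereas 4 of the same 12 were called higher in WT (median 0.61). Il1b, the precursor of the pyrogenic cytokine IL-1 beta (chr2:129364570-129371139), had the largest ratio, from 65.4 to 613 CPM, 3.23 (95% interval 3.15 to 3.31). In WT macrophages Il1b went from 60.8 to 404 CPM (2.73), also a called rise, and the 21-week-DB level was the highest of the 4 libraries. Tnf went from 145 to 495 CPM (1.77), Cxcl1 from 99.0 to 621 CPM (2.65) and the chemokine gene Ccl3 from 107 to 517 CPM (2.27), with WT ratios of 0.84, 1.07 and 0.13. The NF-kB inhibitors Nfkbia (1.37) and Tnfaip3 (1.22) and the NF-kB regulator Nfkbiz (1.27), which the pathway itself induces, were also called higher. Neutrophil markers (8 genes) in the same cells summed to 76.2 to 236 CPM, and the dendritic and Langerhans cell marker Cd207 went from 9.52 to 116 CPM (3.61), from 4.27 to 41.4 CPM in Lyve1-positive and from 18.1 to 296 CPM in Lyve1-negative macrophages. Dendritic cell markers (8 genes) summed to 53.0 to 172 CPM. The part of either list in the inflammatory values was not tested.

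Cxcl13, which draws B cells, went from 15.3 to 112 CPM (2.87, 95% interval 2.69 to 3.04), against 27.4 to 35.8 CPM in WT. A single cell gave 22.9% of its UMIs at 12 weeks and 11.1% at 21 weeks. Acp5, the tartrate-resistant acid phosphatase of lysosomes, went from 21.5 to 143 CPM (2.74, 95% interval 2.59 to 2.89), against 16.7 to 35.1 CPM in WT. Both were higher in macrophages with and without a UMI of Lyve1, a receptor of perivascular skin macrophages (ratios 2.58 and 2.99 for Acp5). At 12 weeks both were under 50 CPM in DB macrophages, and they were compared only through their 21-week level.

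Retnla encodes a secreted protein induced by IL-4 and IL-13 in alternatively activated macrophages (chr16:48842551-48844461). It went from 889 to 23.5 CPM, -5.24 (95% interval -5.40 to -5.09), while WT macrophages held 1910.3 CPM at 12 weeks and 2859 CPM at 21 weeks. The ratio was -5.20 in the Lyve1-positive and -5.40 in the Lyve1-negative macrophages. Of 6 compared members of the alternative activation list Retnla was the only one called. In DB macrophages Retnla was under 50 CPM at 21 weeks and was compared only through its 12-week level. Mrc1 was at 848 to 527 CPM (-0.69), Clec10a at 181 to 206 CPM (0.18) and Cd163 at 657 to 712 CPM (0.12).

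The other large falls were Lpl (lipoprotein lipase), from 472 to 48.7 CPM (-3.28, 95% interval -3.39 to -3.17), Ccr2, the receptor by which monocytes enter tissue, from 368 to 80.8 CPM (-2.19, 95% interval -2.28 to -2.10), Mamdc2, from 145 to 39.3 CPM (-1.88), and the proteoglycan Sdc3, from 271 to 79.1 CPM (-1.78). Lpl was also called lower in WT macrophages, from 537 to 149 CPM (-1.85), and Ccr2 was not (210.4 to 176 CPM, -0.26). Monocyte markers (7 genes, Ccr2 and Fn1 among them) summed to 1868 to 680.4 CPM in DB macrophages and to 2120.4 to 2563 CPM in WT macrophages, and their part in these falls was not tested. The hyaluronan receptor Cd44 fell from 902 to 310.0 CPM (-1.54), and was at 806 to 754 CPM in WT.

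Genes of lipid and iron handling moved apart from each other. Of 11 compared lipid genes 2 were called higher, Apoe from 3351 to 11121 CPM (1.73, 95% interval 1.72 to 1.74) and Spp1 (osteopontin) from 31.3 to 164 CPM (2.39), and 1 lower, Lpl. Spp1 was under 50 CPM at 12 weeks, and over the other 10 members 1 was called higher. Apoe, the main lipid carrier secreted by macrophages, was at 3524 to 2467 CPM in WT (-0.51), and the scavenger receptor Cd36 was at 1149 to 630.0 CPM in DB (-0.87). The haem-degrading enzyme Hmox1 rose from 220.1 to 821 CPM (1.90, 95% interval 1.85 to 1.95), and the iron store genes Fth1 (4876 to 8932 CPM, 0.87) and Ftl1 (3516 to 5815 CPM, 0.73) stayed under 2-fold. Among 9 compared receptors of tissue-resident macrophages 2 were called higher, the complement receptor Vsig4 from 271 to 635 CPM (1.23) and the apoptotic cell receptor Mertk from 29.9 to 72.4 CPM (1.28). Mertk was under 50 CPM at 12 weeks, and over the other 8 members 1 was called higher. Lyve1 itself was at 1151 to 1023 CPM (-0.17). Of 7 compared complement genes Vsig4 and C4b (83.0 to 192 CPM, 1.21) were called higher and properdin (Cfp, 139 to 42.2 CPM, -1.72) lower. Of 12 cathepsins and cystatins Ctsc was the only one called (499 to 178 CPM, -1.49).

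MHC class II genes, which present peptides to CD4 T cells, were lower in DB macrophages. Of 5 compared members 4 were called lower, H2-DMb1 from 249 to 88.6 CPM (-1.49), H2-DMa from 264 to 122 CPM (-1.11), Cd74 from 4265 to 2032 CPM (-1.07) and H2-Ab1 from 1440.3 to 713 CPM (-1.01). The fifth, H2-Eb1, was at 1054 to 573 CPM (-0.88). In WT macrophages none of 6 was called, with a median of 0.52 against -1.07 in DB. The values differed within the gate, a difference that was not tested. H2-Ab1 went from 662 to 139 CPM (-2.25) in Lyve1-positive macrophages (1075 and 972 cells) and from 2708 to 2103 CPM (-0.36) in Lyve1-negative ones (692 and 464 cells), and Cd74 was at -2.69 and -0.36. Il1b had the opposite order, at 2.09 in Lyve1-positive and 3.93 in Lyve1-negative macrophages, where it reached 1730 CPM at 21 weeks. Under TMM scaling 2 members were called lower.

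Early response genes, which many stimuli and also tissue digestion induce within minutes, were higher in 5 of 16 compared members in DB macrophages. Atf3 (146 to 429.8 CPM, 1.56), Ier3 (1.46) and Jun (284 to 765 CPM, 1.43) led them, and Klf6 was at -0.10. None of 16 was called in WT macrophages. Of 12 heat shock genes 3 were called higher, Hspb1 from 48.9 to 267 CPM (2.45), Hspa1a (1.10, a gene with a near-identical copy) and Hsp90aa1 (1.06). Hspb1 was also called higher in WT (1.19). In DB it was under 50 CPM at 12 weeks, and over the other 11 members 2 were called higher. Digestion time was given as a range for all groups, and its part in these values was not tested.

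DB dendritic cells also had higher inflammatory genes at 21 weeks. Of 15 compared members of the inflammatory list 14 were called higher, but Il1rn, Cxcl3 and Ccl7 were under 50 CPM at 12 weeks and could be compared only through their 21-week level. Over the 11 members compared in both genotypes 10 were called higher in DB (median 1.67) and 2 in WT (median 0.73). The monocyte attractants Ccl7 (10.4 to 144 CPM, 3.79, 95% interval 3.51 to 4.09) and Ccl2 (66.8 to 444 CPM, 2.73, 95% interval 2.61 to 2.85), the neutrophil attractant Cxcl1 (55.5 to 518 CPM, 3.22, 95% interval 3.10 to 3.35) and Ptgs2, the inducible cyclooxygenase (95.9 to 644 CPM, 2.75, 95% interval 2.65 to 2.85), had the largest ratios of the list. In WT dendritic cells Ccl7 was at 24.4 to 23.9 CPM and Ccl2 at 94.7 to 101 CPM, neither called, while Ptgs2 was called higher (53.6 to 220.5 CPM, 2.04). Il1b went from 519 to 3174 CPM (2.61), above its 21-week level in macrophages, and its inhibitor Il1rn from 22.9 to 134 CPM (2.55). Tnfaip3 was the 1 compared member that stayed under 2-fold (307 to 562 CPM, 0.87).

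**Figure D4:**
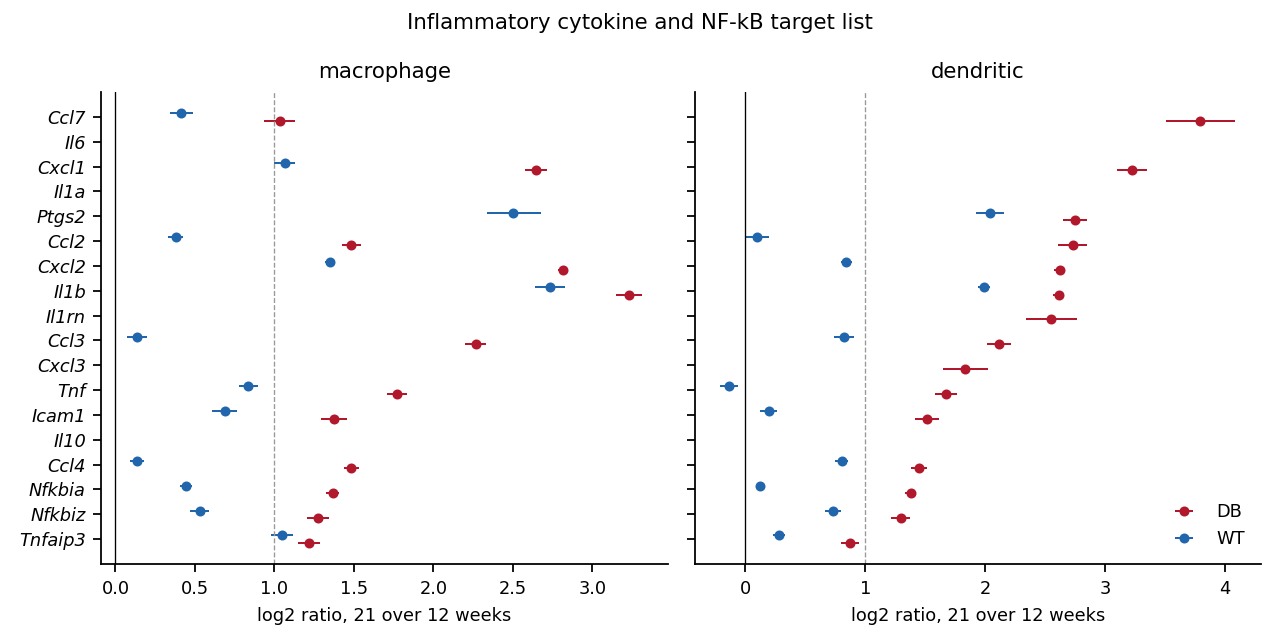
Log2 ratio of 21 over 12 weeks for the members of the inflammatory list in macrophages (left) and dendritic cells (right), in DB (red) and WT (blue), with exact 95% counting intervals. The dashed line marks 2-fold, genes without a point were too low to be compared, and every DB point lies right of the dashed line except Tnfaip3 in dendritic cells (0.87).

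Clec4e, a receptor for mycobacterial glycolipid and dead cells, went from 98.4 to 907 CPM in DB dendritic cells (3.21, 95% interval 3.11 to 3.30), against 55.6 to 122 CPM in WT (1.13), and Plat, tissue plasminogen activator, from 15.9 to 101 CPM (2.67). The chemokine Ccl17, which attracts CCR4-bearing T cells, moved in opposite directions in the 2 genotypes, from 312 to 1296 CPM in DB (2.05, 95% interval 1.99 to 2.11) and from 1088 to 369.6 CPM in WT (-1.56). Ccl5 also rose, from 28.5 to 144 CPM (2.34). Plat and Ccl5 were under 50 CPM at the younger age in DB and were compared only through their level at the older age. Retnla fell from 284 to 22.4 CPM (-3.66, 95% interval -3.96 to -3.38), with a smaller called fall in WT (122 to 53.2 CPM, -1.20). Cavin1, a coat protein of caveolae, went from 117 to 27.0 CPM (-2.12), the microtubule regulator Stmn1 from 78.4 to 22.2 CPM (-1.82), cyclin D1 (Ccnd1) from 119 to 35.6 CPM (-1.74) and Wdfy4, needed for cross-presentation, from 86.7 to 26.8 CPM (-1.69). Cavin1 had a WT ratio of -1.89, and Stmn1 one of -0.055.

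Antioxidant and iron genes were higher in dendritic cells, with 4 of 7 compared members called. Slc7a11, the cystine importer, went from 41.8 to 167 CPM (2.00), Hmox1 from 89.7 to 292 CPM (1.70), Fth1 from 2892 to 6893 CPM (1.25) and Txnrd1 from 84.2 to 190.3 CPM (1.18), while Prdx1 was at -0.28. Slc7a11 was under 50 CPM at 12 weeks, and over the 5 members compared in both genotypes 3 were called in DB and none in WT. Of 6 compared glucocorticoid-responsive genes 4 were called higher, Errfi1 (1.37), Fkbp5 (1.32), Klf9 (1.17) and Ddit4 (1.14), but the last 3 were under 50 CPM at 12 weeks, and over the 3 members compared in both genotypes 1 was called in DB and none in WT. Of 7 compared MHC class II genes none was called in these cells, with H2-Ab1 at 6383 to 5724 CPM (-0.16), though the gate itself demanded H2-Aa. The maturation genes Cd86 (86.9 to 159.5 CPM, 0.88), Cd83 (0.82) and Ccr7 (0.93) stayed just under 2-fold, and 3 members of their list passed it under TMM. The lone proliferation gene called higher was Mki67 (57.5 to 119.8 CPM, 1.06), while Stmn1 and Tuba1b (-1.02) were called lower. The gate held only 355 cells at 21 weeks, and 1 cell gave 35.3% of the Retnla and 21.8% of the Stmn1 UMIs of that library.

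T cells differed between ages mainly through falls. The rises were led by Cxcl1 (22.7 to 114 CPM, 2.33, 95% interval 2.14 to 2.53), Bcl2a1b, its near copy Bcl2a1d (68.1 to 238 CPM, 1.81), the proton-sensing receptor Gpr65 (54.1 to 172 CPM, 1.67, 95% interval 1.54 to 1.80) and Mt1. The WT ratios of these 5 genes lay between -0.037 and 0.28, and Cxcl1 was too low in WT T cells to be compared. Il7r, the receptor for the survival cytokine IL-7, was also called higher (370.5 to 817 CPM, 1.14), against 462 to 400.3 CPM in WT. Of 9 compared members of the inflammatory list 2 were called higher in T cells, Cxcl1 and Cxcl2, and of 7 in ILC2 1, Cxcl2. Cxcl1 and Ccl4 were under 50 CPM in T cells at 12 weeks, and over the other 7 members 1 was called higher.

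The T cell gate joins cells with a UMI of Trdc, 62.2% of it at 12 weeks and 59.4% at 21 weeks, and cells without, so values are also given for each, with no test of the difference. Unc5b, a netrin receptor, went from 96.5 to 11.2 CPM over all T cells (-3.10, 95% interval -3.36 to -2.86) and the adhesion molecule Cntn1 from 108 to 16.2 CPM (-2.73, 95% interval -2.94 to -2.53). Among Trdc-positive cells Unc5b went from 160.1 to 16.9 CPM and Cntn1 from 179 to 25.1 CPM, while in Trdc-negative cells Unc5b was at 2.89 to 2.70 CPM and Cntn1 at 3.11 to 2.88 CPM. Unc5b and Cntn1 went the same way in WT T cells (40.2 to 8.22 CPM and 54.4 to 11.1 CPM), where they were too low to be compared. In DB T cells both were under 50 CPM at 21 weeks and were compared only through their 12-week level. Cxcl2 went from 109 to 531 CPM in Trdc-positive cells (2.28) and was at 229.7 to 279 CPM in Trdc-negative ones (0.28). Il1b was called in opposite directions. It went from 36.6 to 110 CPM in Trdc-positive cells (1.58), where it was under 50 CPM at 12 weeks. In Trdc-negative cells it went from 140 to 62.4 CPM (-1.17). The cytotoxic and type 1 genes Xcl1 (82.2 to 21.8 CPM, -1.92), Klrd1 (159 to 60.8 CPM, -1.39) and Nkg7 (226 to 103 CPM, -1.13) were called lower. They were 3 of 4 compared members of their list. Xcl1 was under 50 CPM at 21 weeks and was compared only through its 12-week level. Xcl1, Klrd1 and Nkg7 had ratios of -2.52, -1.64 and -1.64 in Trdc-positive cells and -1.24, -0.35 and -0.14 in Trdc-negative ones. Klrd1 was also called lower in WT (-1.42).

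Proliferation genes were lower in DB T cells, with 4 of 5 compared members called and a median of -1.74. DNA topoisomerase Top2a went from 97.4 to 20.1 CPM (-2.28, 95% interval -2.47 to -2.09), Stmn1 from 107 to 30.7 CPM (-1.80), Tuba1b from 310.1 to 92.9 CPM (-1.74) and the replication clamp Pcna from 240.1 to 105 CPM (-1.19). None of 6 was called in WT T cells, where Top2a was at 121 to 116 CPM. In DB T cells with no UMI of C1q or H2-Aa the ratios were -1.19 for Top2a and -0.94 for Stmn1. Of 4 compared genes of sterol and fatty acid synthesis 3 were called lower, Insig1 (-1.27), Srebf2 (-1.22) and Scd2 (-1.22). All 3 were under 50 CPM at 21 weeks in T cells with and without a UMI of Trdc. They too were compared only through their 12-week level, and the rule itself favoured a fall. Of the IL-17 programme none of 5 was called, with Il17a at 98.1 to 133 CPM (0.44), and of the T cell receptor signalling list none of 11. Costimulation and checkpoint genes were likewise without a call, 0 of 9, from Tnfrsf4 at 0.80 to Cd44 at -0.93. These counts are for the whole gate. The signalling gene Lck was called lower in Trdc-positive cells (77.2 to 29.7 CPM, -1.38) and was at 0.03 in Trdc-negative ones. Cd44 was called lower in Trdc-negative cells (-1.18) and was at -0.81 in Trdc-positive ones.

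Falls of genes of other cell types in the T cell gate came with lower levels of whole marker lists. All 5 compared MHC class II genes were called lower in T cells, H2-Ab1 from 743 to 152 CPM (-2.29), all 3 in ILC2 (H2-Ab1 427 to 92.6 CPM) and all 3 in mast cells (H2-Ab1 403 to 63.8 CPM). Among Trdc-positive T cells H2-Ab1 (-0.78) and Cd74 (-0.57) were not called and H2-Eb1 (-1.03) was. The same genes were at -3.60, -3.35 and -3.73 in Trdc-negative ones. H2-DMa and H2-DMb1 were under 50 CPM at 21 weeks in both sets of T cells. Over the whole T cell gate they were compared only through their 12-week level. Over the same libraries macrophage markers went from 1039 to 402 CPM in T cells, and cells in both the T cell and dendritic gates numbered 81 at 12 weeks and 21 at 21 weeks. In cells with no UMI of C1q or H2-Aa the H2-Ab1 ratio was -1.26 in T cells, -0.96 in ILC2 and -1.38 in mast cells, and 1.42 for Cxcl2 in T cells, near its value over the whole gate. Retnla, from 114 CPM to 3 UMIs (-9.04, 95% interval -11.32 to -7.49), and the immunoglobulin gene Iglc1, from 378 to 1.94 CPM (-7.61, 95% interval -8.21 to -7.06), had the largest falls of all in T cells. A single cell gave 36.6% of the 12-week Retnla UMIs and 99.2% of the 12-week Iglc1 UMIs, and B cell markers summed to 439 to 42.5 CPM. Retnla and Iglc1 were under 50 CPM at 21 weeks and were compared only through their 12-week level.

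The largest rises in ILC2 were in Ramp3, Calca, Trnp1, Mir155hg and Ubb. Ramp3, a subunit of receptors for the calcitonin and adrenomedullin family, went from 30.4 to 176 CPM (2.53, 95% interval 2.31 to 2.76), and Calca, which encodes calcitonin gene-related peptide, from 51.8 to 251 CPM (2.28, 95% interval 2.11 to 2.45). In WT ILC2 Ramp3 was at 21.5 to 51.7 CPM and Calca at 23.8 to 27.4 CPM. Trnp1, a nuclear regulator of progenitor division, went from 23.8 to 106 CPM (2.15), Mir155hg, the host transcript of microRNA 155, from 29.7 to 90.7 CPM (1.61), and the polyubiquitin gene Ubb from 724 to 2068 CPM (1.51, 95% interval 1.47 to 1.56). Ramp3, Trnp1 and Mir155hg were under 50 CPM at the younger age and were compared only through their level at the older age. For them the rule itself favoured a rise. Ramp3 was also called higher in dendritic cells (25.2 to 94.9 CPM, 1.91) and T cells (83.0 to 174 CPM, 1.07). In dendritic cells Ramp3 was likewise under 50 CPM at the younger age. Ramp3 and Calca had ratios of 2.41 and 2.10 in ILC2 with no UMI of C1q or H2-Aa.

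Of 8 compared type 2 cytokines and receptors 1 was called in ILC2, the epidermal growth factor receptor ligand Areg, from 149.8 to 349.6 CPM (1.22, 95% interval 1.12 to 1.33). Il13 was at 286 to 511 CPM (0.84, 95% interval 0.76 to 0.92) and Il5 at 82.5 to 139 CPM (0.76, 95% interval 0.61 to 0.91), and both were under 2-fold with intervals above 0. TMM scaling, which raised all ILC2 ratios, placed 3 of the 8 past 2-fold. The alarm receptor Il1rl1 was at 460.0 to 344 CPM (-0.42), Il2ra at 498 to 405 CPM (-0.30) and Csf2 at 151 to 94.7 CPM (-0.67). Of 12 heat shock genes 3 were called higher in DB ILC2, Hspb1 (1.34), Hspe1 (1.26) and Dnajb1 (1.01), while Hspa1b was at -0.07. Hspb1 was under 50 CPM at 12 weeks, and over the other 11 members 2 were called higher.

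The largest falls in ILC2 included Tppp3, Myadm and Lars2, given above, and the early response transcription factor Egr3 (81.0 to 23.4 CPM, -1.79, 95% interval -2.02 to -1.57). In WT ILC2 Egr3 was at -0.74. Lif, a cytokine of the IL-6 family, fell from 142 to 65.9 CPM (-1.11), and Ccl5 from 96.5 to 42.7 CPM (-1.18). Stmn1 (-1.43) and Tuba1b (-1.03) were called lower among 4 proliferation genes. Keratinocyte markers (8 genes), whose cells also transcribe Gata3, summed to 372 to 71.9 CPM in this gate.

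Mast cells had the largest number of called genes at the 50 CPM minimum, and the smallest without it (307 higher and 733 lower). Of the 123 genes called higher in DB, 93 could be compared in WT and 22 of these were called higher there. The matching counts were 8 of 60 in macrophages, 3 of 69 in dendritic cells, 1 of 22 in T cells and 0 of 20 in ILC2. Over all genes compared in WT, 1.75% were called higher in mast cells and 0.505% in macrophages. The share was 0.251% in dendritic cells, 0.0980% in T cells and 0.363% in ILC2, so the lineages had unlike numbers of WT calls to match. These DB and WT comparisons share no library. The growth factor Bmp2 went from 33.2 to 238 CPM (2.84, 95% interval 2.23 to 3.53) and from 22.2 to 127 CPM in WT (2.52). The MAP kinase phosphatase Dusp4 (18.1 to 109 CPM, 2.59, 95% interval 1.76 to 3.56), the adhesion protein Flrt3 (64.9 to 325 CPM, 2.32, 95% interval 1.88 to 2.80) and the imprinted gene Peg10 (33.2 to 144 CPM, 2.12, 95% interval 1.49 to 2.81) followed, with WT ratios of 1.85, 1.76 and 0.67. In DB Bmp2, Dusp4 and Peg10 were under 50 CPM at the younger age and were compared only through their level at the older age. For them the rule itself favoured a rise. The 12-week mast cells held 662405 UMIs, the fewest of the gated DB lineages, and Dusp4 rested on 12 UMIs there.

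Of 8 compared members of the inflammatory list 4 were called higher in mast cells at 21 weeks, and of 4 type 2 cytokines and receptors 3. Ccl7 went from 1563 to 7022 CPM (2.17, 95% interval 2.08 to 2.26), Il13 from 109 to 536 CPM (2.30, 95% interval 1.96 to 2.67), Il4 from 83.0 to 193 CPM (1.22) and Il6 from 195 to 488 CPM (1.32). In WT, Ccl7 (1.77), Il13 (1.59) and Il6 (1.10) were also called higher and Il4 was not (98.8 to 104 CPM). Tnfaip3 went from 832 to 3425 CPM in DB (2.04) and from 515 to 2055 CPM in WT (2.00), and Tnf was at 337 to 231 CPM (-0.54). Il7r rose from 103 to 392 CPM (1.93). Of 15 early response genes 4 were called higher, led by Fosb (971 to 2448 CPM, 1.33).

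Granule proteases divided. Of 8 compared members Gzmb (granzyme B) was called higher, from 122 to 418 CPM (1.77), as in WT (46.6 to 171 CPM, 1.88), and 3 were called lower, Cma2 (8744 to 3610.3 CPM, -1.28), cathepsin G (806 to 349.8 CPM, -1.20) and Mcpt9 (1169 to 535 CPM, -1.13). Mcpt2, the most abundant, was at 48680.0 to 25440.0 CPM (-0.94), and the tryptase Tpsab1 at 3632 to 4877 CPM (0.43). None of these 3 lower genes was called in WT. The receptors and mediators that define mast cells had 0 of 13 members called, among them the stem cell factor receptor Kit (1988 to 1803 CPM, -0.14), the histamine-forming enzyme Hdc (2636 to 3557 CPM, 0.43) and the IgE receptor chain Fcer1a (364 to 497 CPM, 0.45).

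The largest falls in mast cells were the transcription factors Sox4 (154 to 29.6 CPM, -2.38, 95% interval -2.85 to -1.91) and Hhex (92.1 to 28.2 CPM, -1.71, 95% interval -2.24 to -1.17), Shisa2 (178 to 47.7 CPM, -1.90, 95% interval -2.30 to -1.51), Kctd12 (81.5 to 25.4 CPM, -1.68, 95% interval -2.25 to -1.11) and Rab37, a GTPase of secretory granules (118 to 39.8 CPM, -1.57, 95% interval -2.02 to -1.10). Hhex was also called lower in WT (105 to 42.4 CPM). In DB, Sox4, Hhex, Shisa2, Kctd12 and Rab37 were under 50 CPM at 21 weeks. They were compared only through their 12-week level, so the rule itself favoured a fall. A single cell gave 33.3% of the 12-week Sox4 UMIs. Mitochondrially encoded genes were called lower in 7 of 12 compared members, with a median of -1.02, and the median share of mitochondrial UMIs per mast cell was 2.54% at 12 weeks and 0.924% at 21 weeks. None of 12 was called in WT, and TMM scaling left 2 called. mt-Nd4l, mt-Nd3 and mt-Nd4 had the largest ratios (-1.35, -1.21 and -1.10).

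In all, 5 genes were past 2-fold in opposite directions in different DB lineages. Ccl5 was higher in dendritic cells (2.34) and lower in ILC2 (-1.18). Egr3 was lower in ILC2 and went from 125 to 337 CPM in mast cells (1.43), and Lif was lower in ILC2 and went from 39.3 to 84.7 CPM in mast cells (1.11). The transcription factor Klf4 went from 555 to 254 CPM in T cells (-1.12) and from 243 to 489 CPM in mast cells (1.01), and Lin54, a subunit of a cell cycle repressor complex, from 167 to 68.0 CPM in T cells (-1.30) and from 86.0 to 173 CPM in mast cells (1.0). The fall of Lin54 was -1.55 in Trdc-positive T cells, and in Trdc-negative ones the ratio was 0.051. These differences between lineages were not tested.

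Across lineages, ribosomal protein genes moved together. Positive ratios were found in 74 to 79 of the 80 or 81 compared members of each lineage, with medians from 0.38 in dendritic cells to 0.65 in T cells, and WT medians were also positive, from 0.13 to 0.76. Their sum went from 182760.0 to 282740.0 CPM in T cells, and 4 members were called higher there, 1 in ILC2 and 7 in mast cells. Under TMM 18 were called higher in T cells, 9 in ILC2 and 17 in mast cells. Nuclear genes of oxidative phosphorylation had medians from -0.085 to 0.077 and no call in any lineage. MHC class I medians were negative in all 5 lineages (-0.40, -0.38, -0.32, -0.41 and -0.29 in macrophages, dendritic cells, T cells, ILC2 and mast cells), with the loading factor Tapbp as the single call, in T cells and ILC2. Glycolysis medians were negative in all 5 as well, from -0.43 to -0.11, and the dendritic value turned positive under TMM. Interferon-stimulated genes were mostly too low to be compared, with 1 of 16 compared in macrophages and none in the other lineages.

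**Figure D5:**
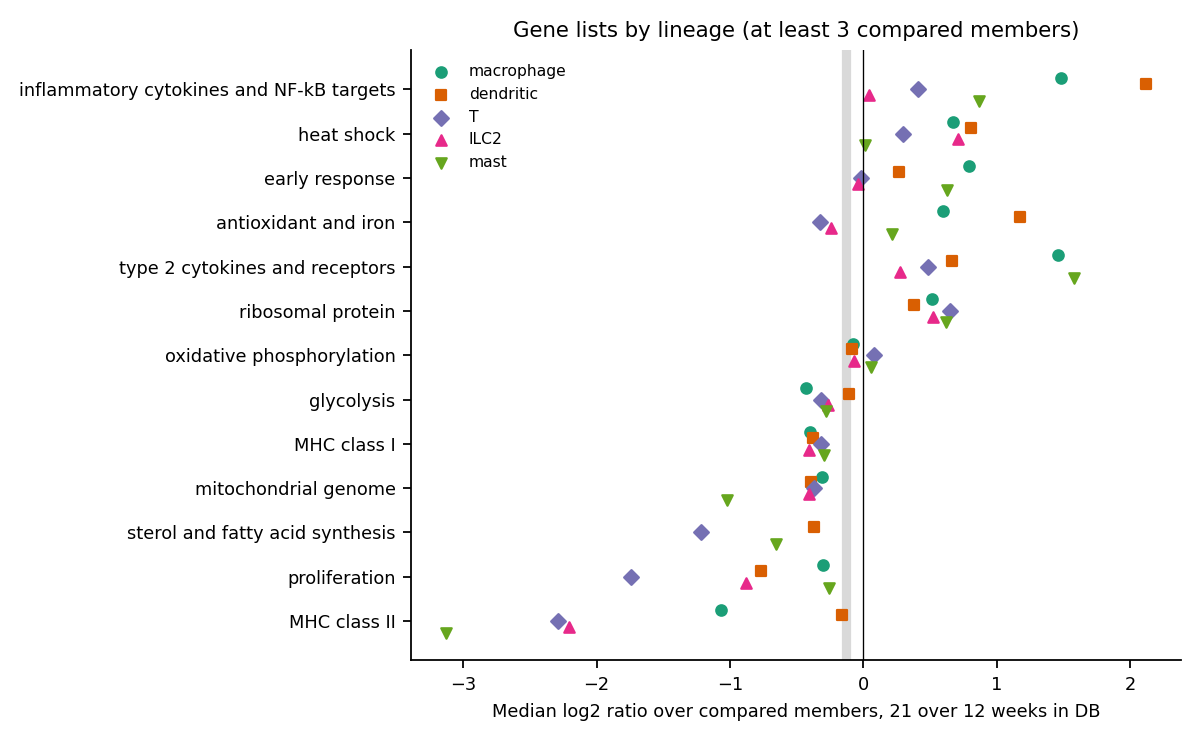
Median log2 ratio of 21 over 12 weeks in DB over the compared members of 13 gene lists, 1 symbol per lineage, for lists with at least 3 compared members. The grey band covers the medians of all compared genes (-0.14 to -0.11). The inflammatory list lies at 2.12 in dendritic cells, where 3 of its 15 compared members were under 50 CPM at 12 weeks, and at 1.48 in macrophages.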

How the data were processed

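The authors sequenced 10x 3' v3 libraries and deposited filtered UMI counts (whole numbers per gene and cell, not normalized), aligned with Cell Ranger to mm10. Headers name version 5.0.0 at 12 weeks and 6.0.0 at 21 weeks, and the processing notes 5.0.0. GEO's titles give young and aged groups, and ages in weeks come from the study's methods. A barcode was kept with 200 or more genes and no more than 10% of UMIs from mitochondrial genes. No doublet caller or ambient RNA removal was used, and 128 (12-week-DB) and 64 (21-week-DB) cells fell in several gates and were kept in each. Counts were summed per gate and library and divided by the total to give CPM. Intervals of ratios were exact conditional binomial ones, those of shares Clopper-Pearson, and a count of 0 was set at 3 UMIs. Named genes were the 5 largest rises and falls of each lineage, those shared by at least 4 lineages and those called in opposite directions, excluding gate genes, unnamed models, markers of other cells and genes under 10% of the level in the highest lineage, plus members of the gene lists, and some genes that this rule names are not reported here. The members and lists were chosen with earlier results of these data known. Alternatives covered scaling (TMM in edgeR 4.0.16, used for scaling only, and median of ratios), filters, gates and subsets. Statistics used numpy 2.4.6 and scipy 1.17.1 and were tested on simulated data.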

Additional observations from a re-analysis of the deposited data

Results flagged for a closer look

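Genes past 2-fold in one direction in DB and in the other in WT were Ccl17 in dendritic cells (2.05 in DB, -1.56 in WT), Ccl5 in ILC2 (-1.18 and 1.21), Hspb1 in ILC2 (1.34 and -1.63) and Hpgd, which inactivates prostaglandins, in macrophages (1.20 and -1.52, from 53.1 to 122 CPM in DB and from 81.6 to 28.4 CPM in WT). Ccl17 was at 312 and 1296 CPM in DB and at 1088 and 369.6 CPM in WT dendritic cells. Under TMM scaling Ccl5 in DB ILC2 fell short of 2-fold. With 1 library per group the difference between genotypes was not tested.

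Genes that moved in opposite directions between DB lineages were Ccl5 (2.34 in dendritic cells, -1.18 in ILC2), Egr3 (-1.79 in ILC2, 1.43 in mast cells), Lif (-1.11 in ILC2, 1.11 in mast cells), Klf4 (-1.12 in T cells, 1.01 in mast cells) and Lin54 (-1.30 in T cells, 1.0 in mast cells). Under TMM scaling Ccl5 and Lif in ILC2 and Klf4 in T cells fell short of 2-fold. Egr3, Klf4 and Lin54 had opposite signs in the same lineages in WT, while Lif and Ccl5 were positive in both. These differences between lineages were not tested either.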

How the results depend on the processing

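No paired analysis was possible because each group had 1 library. Of 920 alternative values for 96 gene and lineage pairs, 632 moved by less than the counting interval, 287 moved further, 854 were still at least 2-fold and 1 reversed, Lin54 in T cells with no Trdc UMI (0.051). Without the minimum of 50 CPM (at least 10 UMIs) higher and lower counts were 982 and 598 in macrophages, 435 and 728 in dendritic cells, 530 and 1708 in T cells, 326 and 1531 in ILC2 and 307 and 733 in mast cells. TMM gave 23 lower in dendritic cells, 66 higher and 103 lower in T cells, 82 and 38 in ILC2 and 80 lower in mast cells, and median of ratios gave 22, 66 and 103, 88 and 36, and 81. Macrophages with no Lyve1 UMI had 135 genes higher and T cells with a Trdc UMI 45. The ILC2 share ratio was 1.57 at a limit of 5% mitochondrial UMIs, and the mast cell share ratio 2.57 when the gate asked for 2%. Depth limits low genes most in mast cells, the lineage with the fewest UMIs. Leaving out barcodes found in several libraries, and T cells, ILC2 and mast cells with a UMI of C1q or H2-Aa, and counting list members over those compared in both genotypes were alternatives chosen after seeing the data.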

Other observations

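Retnla had a UMI in 27.1% of DB macrophages at 12 weeks and 3.97% at 21 weeks (13.7% and 1.47% after thinning each cell to 2000 UMIs), and in 10.4% and 0.133% of T cells, which are not known as its source (4.85% and 0% after thinning, 3 UMIs in all at 21 weeks). Thinning left out 12 and 9 macrophages and 49 and 102 T cells, and median depths were 10744 and 9421.5 UMIs in macrophages and 5480 and 5417 in T cells.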
